A study of Mus musculus with 5 samples.

Results

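The genes described here are 10 members of the interleukin-6 (IL6) signalling family and its inflammatory surroundings. They were measured by RNA-Seq in sorted Gli1-lineage lung fibroblasts of control and Igf1r-deleted mouse pups. They are the cytokines Il6 and Lif, the receptor chains Il6ra, Il6st, Lifr and Osmr, the transcription factor Stat3 and its feedback inhibitor Socs3, and the chemokines Ccl2 and Cxcl1. The members were named by symbol, and all 10 were found among the 23478 genes of the count table. All 10 were also among the 15298 genes whose counts were high enough to be tested. Il6ra was selected because its level differed in this same contrast, so its values are given as a description with no test. The other 9 were chosen by family membership, with earlier results of these data known.

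Both genotypes carried Gli1-CreERT2, which is active in cells that express Gli1 when tamoxifen is given, and a Rosa26-eGFP reporter that marks the recombined cells. The control pups were heterozygotes with 1 floxed Igf1r allele, so Cre could act on that allele in them too, and gave 2 libraries. The Igf1r-deleted pups had 2 floxed alleles and gave 3 libraries. Every pup received 100 µg of tamoxifen at postnatal day (P) 0 and again at P1, and GFP+ cells were sorted from the lungs at P6. The mice were of mixed background and both sexes were used. How many pups made up each library is not stated, so the spread between libraries may be partly technical.

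IL6 binds its own receptor chain, IL6RA, and the pair then recruits the shared signal-transducing chain gp130, the product of Il6st. LIF and oncostatin M use gp130 together with LIFR or OSMR. The gp130 chains activate JAK kinases, which phosphorylate STAT3, and STAT3 in turn switches on Socs3, whose product blocks gp130 signalling. Il6ra is expressed by few cell types, whereas gp130 is found on nearly all cells. CCL2 draws monocytes and CXCL1 draws neutrophils, and both are made together with IL6 by fibroblasts in inflammation.

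The 5 libraries held between 35116766 and 37597857 counted reads, and levels are given as CPM (read counts corrected for sequencing depth, here after TMM normalization). Igf1r itself was at 324 and 324 CPM in control libraries and at 140, 177 and 194 CPM after deletion, the direction that the labels call for. Fibroblast markers summed to between 42147 and 65975 CPM per library, far above the marker sums of other cell types. Hematopoietic markers summed to between 234 and 751 CPM, endothelial markers to between 312 and 901, and epithelial markers to between 504 and 1115. Mesothelial markers summed to between 341 and 454 CPM, and pericyte and smooth muscle markers to between 1506 and 2875. Control replicate 1 held the highest level of 26.4% of all genes tested and control replicate 2 that of 12%, where an even share would be 20%. The Igf1r-deleted libraries held between 18.1% and 23.5%, although replicate 1 differed from the other 2 almost as much as the controls did from each other, by a chi-square per degree of freedom of 47.7 and 44.4 against 50.7. Among the 10 members, 8 were highest in control replicate 1, so the 10 differences are also given without it.

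Across the 10 genes, 9 had a mean log2 fold change (Igf1r-deleted minus control) below 0, and only Lif lay above it. The median over the 10 was -0.36, against 0.015 over all genes tested. Il6ra is counted in both, although it was selected because it differed in this contrast, so it adds no support to them. Il6st, Lifr and Socs3 were lower in every Igf1r-deleted library than in either control, as was the selected gene Il6ra. A gap of that kind was found in that direction for 14.9% of all genes tested. Lif was higher in every Igf1r-deleted library than in either control, as were 16.0% of all genes tested.

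None of the 9 genes passed an adjusted p-value of 0.05 when edgeR's quasi-likelihood test was adjusted by Benjamini-Hochberg across the table, and the count over all 15298 genes was 0, or 0%. At an unadjusted p-value of 0.05, Socs3 and Lifr were called lower and Lif higher, that is 2 and 1 of the 9. Leaving out control replicate 1, only Socs3 was called, and with library totals as the scaling the call of Lifr was lost. The same rule called 6.75% of all genes lower and 5.65% higher. At an adjusted p-value of 0.05, DESeq2's Wald test called 1 of the 9 genes, Socs3, and 199 genes in all. At that adjusted threshold limma-voom called none of the 9. At the unadjusted threshold both methods called Socs3 and Lifr lower and Lif higher, as edgeR did. With 2 libraries against 3, an exact permutation test of a single gene cannot give a p below 0.1. Because the RNA came from a sorted population, fewer cells expressing a gene and less RNA per cell cannot be told apart.

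**Figure D1:**
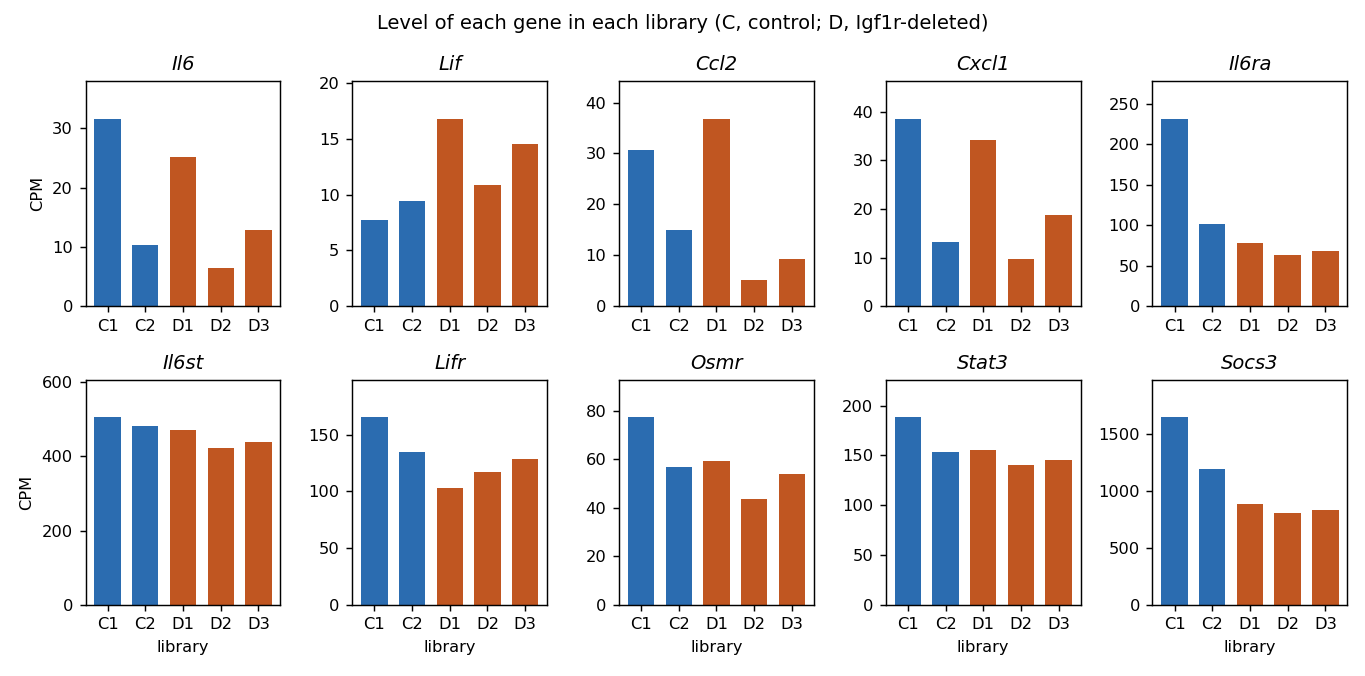
Level of each of the 10 genes in CPM (vertical axes from 0) in control replicates 1 and 2 (C1, C2, blue) and Igf1r-deleted replicates 1 to 3 (D1 to D3, orange), 1 bar per library. Il6ra and Socs3 are lower in all 3 Igf1r-deleted libraries than in both controls, Lif is higher, and Il6, Ccl2 and Cxcl1 are high in C1 and D1 alike.

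Il6ra, the ligand-binding chain of the IL6 receptor, had the largest ratio of group means, and it was selected for this difference. Its gene lies on the minus strand at chr3:89864059-89913196 (mm10). It was counted at 232 and 102 CPM in control libraries and at 78.5, 63.5 and 67.9 CPM after deletion. The controls differed by 2.27-fold from each other, while the 3 Igf1r-deleted libraries lay within 1.24-fold. The mean was 167 ± 91.9 CPM (SD, n = 2) in controls and 70.0 ± 7.74 CPM (SD, n = 3) after deletion, a ratio of 2.39. The log2 fold change was -1.26 ± 0.30 (SE), and -0.55 without control replicate 1. Control replicate 2 alone was still above all 3 Igf1r-deleted libraries. Of the exonic bases of Il6ra, 2.8% overlap Gm42809 on the opposite strand, and whether counting used the strand is not given in the sources used here.

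Genes whose pattern over the 5 libraries was close to that of Il6ra included Acss3 and Glul. Likeness was measured as the root-mean-square difference between log2 CPM values, each gene centred on its own mean, among 9100 genes with a mean of at least 10 CPM. The difference was 0.069 for Acss3, an acyl-CoA synthetase, and 0.10 for Glul, glutamine synthetase. Glul was at 845 and 313 CPM in control libraries and at 246, 224 and 214 CPM after deletion, so control replicate 1 was the highest library by far. With 5 libraries of 2 genotypes, likeness of this kind is a description of these libraries only.

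Il6st, which encodes gp130, was the most even of the 10 genes. It was at 505 and 481 CPM in control libraries and at 470, 422 and 437 CPM after deletion. The groups did not overlap, but the difference was small, with a log2 fold change of -0.15 ± 0.10 (SE) and an adjusted p of 0.550 by edgeR's quasi-likelihood test. The value was -0.12 without control replicate 1. Of all genes tested, 89.6% varied more within genotype than Il6st did.

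Lifr, the LIF receptor chain, was at 165 and 134 CPM in control libraries and at 103, 117 and 129 CPM after deletion. All 3 Igf1r-deleted libraries were below both controls. Its log2 fold change was -0.37 ± 0.14 (SE), with an adjusted p of 0.368 by edgeR's quasi-likelihood test, and -0.22 without control replicate 1. Osmr, the oncostatin M receptor chain, was at 77.5 and 56.8 CPM in control libraries and at 59.3, 43.7 and 53.9 CPM after deletion. The groups overlapped, the log2 fold change was -0.36 ± 0.17 (SE), and the adjusted p by edgeR's quasi-likelihood test was 0.435. Dropping control replicate 1 gave -0.12. Osmr and Lifr lie on the same chromosome, at chr15:6813577-6874969 (minus strand) and chr15:7090614-7197489 (plus strand) in mm10.

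Among the other receptor chains of the family, 3 could be tested, and none passed even the unadjusted threshold. Il11ra1, the IL11 receptor chain, was between 37.8 and 49.3 CPM in the 5 libraries, with a log2 fold change of -0.05. It has a near-identical copy, Il11ra2, which was listed at 0 counts in every library, so how reads were shared between them is uncertain. Cntfr had a log2 fold change of 0.11 and Il27ra of 0.05. The median over the 3 was 0.05, beside 0.015 for all genes. Il31ra was too low to be tested. Adam10 and Adam17, the proteases that shed IL6RA from the cell surface, had log2 fold changes of -0.07 and 0.03, and 0 of 5 genes in the shedding machinery passed the unadjusted threshold in either direction.

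**Figure D2:**
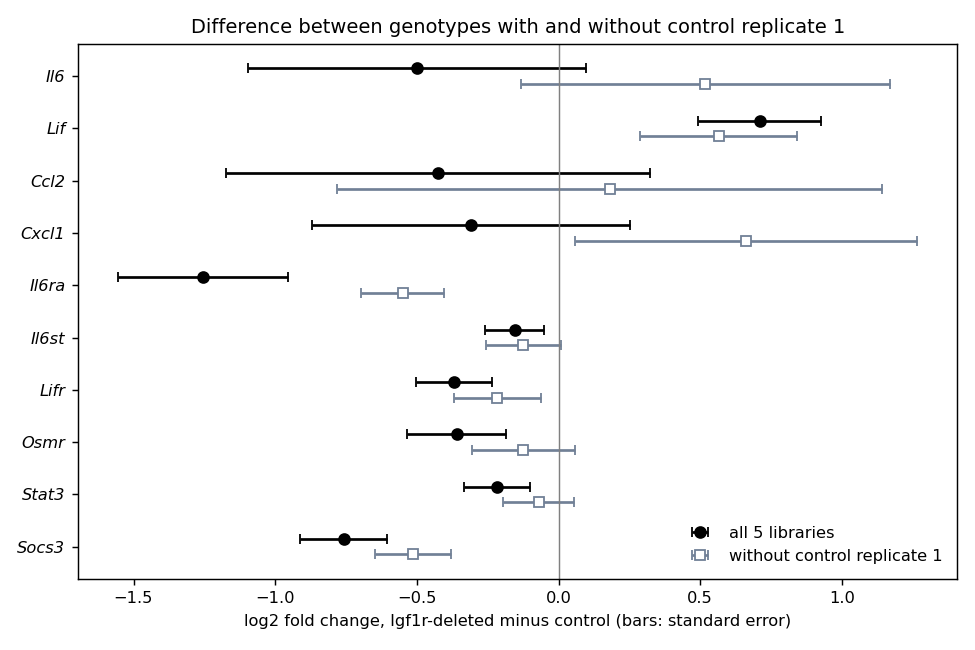
Log2 fold change (Igf1r-deleted minus control, horizontal axis) of each gene with its standard error, from all 5 libraries (filled circles) and without control replicate 1 (open squares). Il6, Ccl2 and Cxcl1 move across 0 when that library is left out, to 0.52, 0.18 and 0.66, while Il6ra (-0.55), Socs3 (-0.51) and Lif (0.57) keep their sign.

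Stat3, the transcription factor downstream of gp130, was at 188 and 154 CPM in control libraries and at 155, 140 and 145 CPM after deletion. Control replicate 2 lay within the range of the Igf1r-deleted libraries, and the log2 fold change was -0.22 ± 0.12 (SE), with an adjusted p of 0.467 by edgeR's quasi-likelihood test. Without control replicate 1 it was -0.07. Stat3 shares 0.756% of its exonic bases with Stat5a. Of the other 10 JAK kinases and STAT factors, 8 were below 0 and 2 above, with a median of -0.11. Only Jak3 of the 10 passed the unadjusted threshold, as lower, where 6.75% of all genes were called lower. It was at 4.67 and 4.53 CPM in the 2 controls against 2.75, 2.31 and 3.06 CPM after deletion, and Jak3 is a kinase of blood cells. Without control replicate 1 its log2 fold change was -0.75 and it was no longer called, and the median of the 10 was -0.05.

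Socs3, the feedback inhibitor of gp130, was the most abundant of the 10 genes and, of those that could be tested, the one with the smallest p-value. It was at 1647 and 1194 CPM in control libraries and at 882, 802 and 836 CPM after deletion. The 3 Igf1r-deleted libraries lay within 1.10-fold of each other, and both controls stood above them. The mean was 1421 ± 320 CPM (SD, n = 2) in controls and 839.9 ± 40.1 CPM (SD, n = 3) after deletion, a ratio of 1.69. The log2 fold change was -0.76 ± 0.15 (SE), and the adjusted p was 0.354 by edgeR's quasi-likelihood test and 0.00103 by DESeq2's Wald test. Leaving out 1 library at a time moved the log2 fold change between -0.98 and -0.51.

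Among the other inhibitors of JAK-STAT signalling, 10 of 15 were below 0 and 5 above, with a median of -0.13. Cish, a SOCS family member induced through STAT5, passed the unadjusted threshold as lower, with a log2 fold change of -0.64. It was at 72.6 and 59.1 CPM in control libraries and at 48.5, 41.9 and 35.9 CPM after deletion, so the groups were apart. Socs5 passed it as higher, with 45.9 and 51.6 CPM in the 2 controls against 57.5, 57.3 and 58.0 CPM after deletion. Over all genes tested, 6.75% were called lower and 5.65% higher. When control replicate 1 was dropped, the call of Cish remained, at -0.49, and that of Socs5 was lost, at 0.15. Socs1, the closest relative of Socs3 in function, was at 27.0 and 27.6 CPM in control libraries and at 29.6, 33.5 and 30.4 CPM after deletion, a log2 fold change of 0.19.

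In the 250 bases before its RefSeq start, Socs3 held a single match to the STAT motif TTCNNNGAA, beginning 154 bases before that start. The motif is its own reverse complement, and 7.02% of 32851 RefSeq promoters of the same length hold a match on either strand. The RefSeq start used lies inside the GENCODE gene, on the minus strand of chr11:117966079-117970047, and the bases after it were not found in a GENCODE Socs3 transcript, so the match is not shown to lie before the start of the transcript counted here. The stretch around the match is chr11:117969502-117969530 (GRCm38.p6). It is printed 5′ to 3′ on the minus strand, with the match in capitals, because Socs3 is the family's best known STAT3 target. A match of letters is a description of the sequence and was not tested as a binding site.

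Socs3 site: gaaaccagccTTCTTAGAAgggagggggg

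Other genes known as STAT3 targets were mostly lower as well. Of the 18 that are not among the 10 members, 16 were below 0 and 2, Nfkbiz and Saa3, above. Lower in all 3 Igf1r-deleted libraries than in both controls were 8 of the 18, beside 14.9% of all genes tested. At the unadjusted threshold 12 were called lower and 0 higher, against 6.75% and 5.65% of all genes, and 0 passed after adjustment in edgeR's quasi-likelihood test. The median log2 fold change was -0.66, beside 0.015 over all genes. The list was chosen with earlier results of these data known.

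Cebpd, a transcription factor of the acute phase response, was at 1881 and 1012 CPM in control libraries and at 675, 398 and 461 CPM after deletion, a log2 fold change of -1.50. Pim1, a survival kinase, was at 391 and 239 CPM in control libraries and at 213, 130 and 156 CPM after deletion. Myc was at 60.1 and 35.7 CPM in control libraries and at 32.4, 20.9 and 22.7 CPM after deletion. In all 3 genes the groups were apart, and control replicate 1 was the highest library.

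That library decided much of the pattern. Serpina3n, an acute phase protease inhibitor, was at 161 CPM in control replicate 1 and between 14.5 and 23.5 CPM in the other 4 libraries. Hp, haptoglobin, was at 151 CPM there and between 19.6 and 29.6 CPM elsewhere. Over the 18 genes, 16 were highest in control replicate 1. Without that library 16 were still below 0, but the median was -0.25, and 1 gene was called lower and 1 higher at the unadjusted threshold, where 1.61% and 1.15% of all genes were called. Without control replicate 2, 14 were called lower, where 7.89% of all genes were called lower and 6.95% higher.

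**Figure D3:**
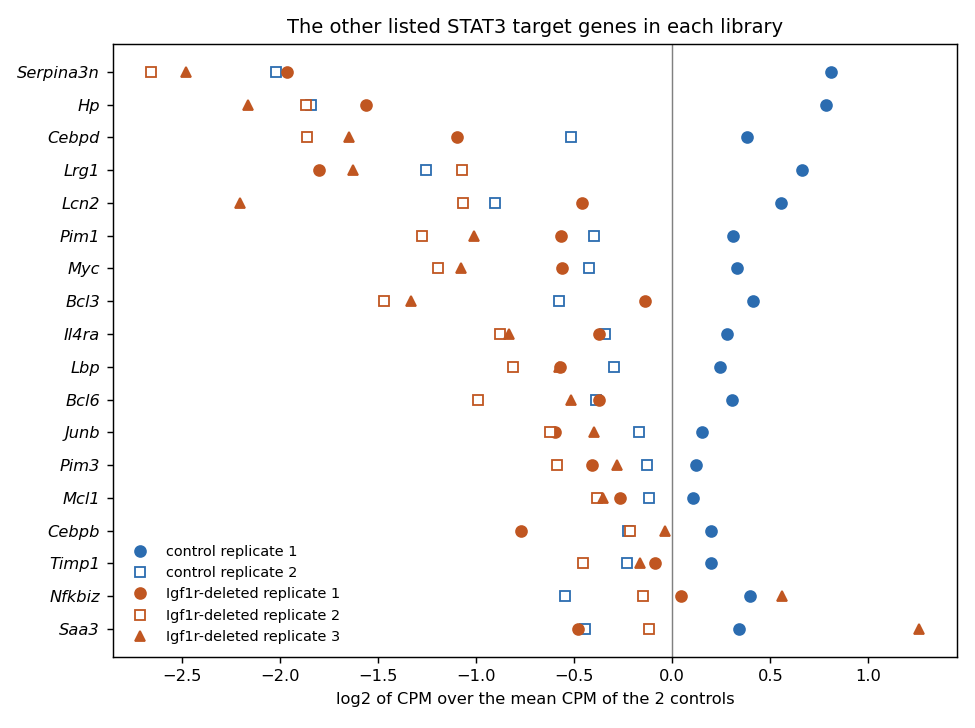
The 18 listed STAT3 target genes that are not among the 10 members, each as the log2 ratio of its CPM to the mean CPM of the 2 controls (horizontal axis), 1 point per library (blue, control; orange, Igf1r-deleted). Control replicate 1 (blue circles) is the highest library for 16 of the 18 genes, and control replicate 2 (blue open squares) often lies close to the Igf1r-deleted libraries.

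Other gene groups were high in the same control libraries as Il6ra and Socs3. Glucocorticoid-induced genes, a list that also holds Il6ra and Cebpd, were below 0 in 16 of the 17 cases other than Il6ra. Their median was -1.17, and 15 were called lower at the unadjusted threshold, against 6.75% of all genes. Their summed level was 7903 and 4704 CPM in the 2 controls against 3555, 2822 and 3199 CPM after deletion. Fkbp5, a standard glucocorticoid target, was at 183 CPM in control replicate 1, 26.9 CPM in control replicate 2, and 27.5, 14.6 and 12.9 CPM after deletion. Without control replicate 1, all 17 were below 0, with a median of -0.56.

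Immediate early genes are switched on by growth factors and also by tissue dissociation. They were listed together with other genes of the dissociation response, and the listed genes were below 0 in 22 of 22 cases. Their median was -0.48, and 13 were called lower at the unadjusted threshold, against 6.75% of all genes. Their sum was 30544 and 26141 CPM in the 2 controls against 20197, 19139 and 22358 CPM after deletion. Leaving out control replicate 1 left 20 of 22 below 0, with a median of -0.32. Junb is also on the STAT3 target list, and Dusp1 on the glucocorticoid list. With the library totals alone as the scaling, 21 of 22 were below 0. The part of either group in the levels of Il6ra, Socs3 and the other STAT3 targets was not tested.

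Il6 itself showed no gap between the genotypes. It was at 31.7 and 10.3 CPM in control libraries and at 25.2, 6.51 and 12.9 CPM after deletion. The groups overlapped, with the 2 controls 3.07-fold apart and the Igf1r-deleted libraries 3.87-fold apart. The log2 fold change was -0.50 ± 0.60 (SE), with an adjusted p of 0.742 by edgeR's quasi-likelihood test, and it turned to 0.52 without control replicate 1.

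Cxcl1 was at 38.6 and 13.1 CPM in control libraries and at 34.1, 9.76 and 18.8 CPM after deletion, and of all 9100 genes compared it was the one closest to Il6, with a root-mean-square difference of 0.11. Tnfaip3, an NF-kB feedback inhibitor, came next at 0.21. Cxcl1's log2 fold change was -0.31 ± 0.56 (SE), with an adjusted p of 0.832 by edgeR's quasi-likelihood test. Leaving out control replicate 1 gave 0.66, and leaving out Igf1r-deleted replicate 2 gave 0.03.

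Ccl2 had the widest spread of the 10 genes. It was at 30.8 and 14.9 CPM in control libraries and at 36.9, 5.05 and 9.21 CPM after deletion, so the Igf1r-deleted libraries differed 7.29-fold among themselves. The highest and the lowest library both belonged to that genotype. Its log2 fold change was -0.42 ± 0.75 (SE), with an adjusted p of 0.827 by edgeR's quasi-likelihood test, and it became 0.18 when control replicate 1 was dropped, 0.01 without Igf1r-deleted replicate 2 and -1.69 without Igf1r-deleted replicate 1. With limma-voom it was -0.87, and with a prior count of 0.5 on mean log2 CPM -0.84.

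The spread within genotype set these 3 genes apart from the receptor chains. The pooled within-genotype SD of log2 CPM was 1.27 for Ccl2, 1.03 for Il6 and 0.97 for Cxcl1, beside a median of 0.18 over all genes tested. Only 1.07%, 2.43% and 2.9% of all genes varied more than these. The values were 0.07 for Il6st, 0.13 for Stat3, 0.18 for Lifr, 0.20 for Socs3, 0.26 for Osmr, 0.29 for Lif and 0.50 for Il6ra.

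**Figure D4:**
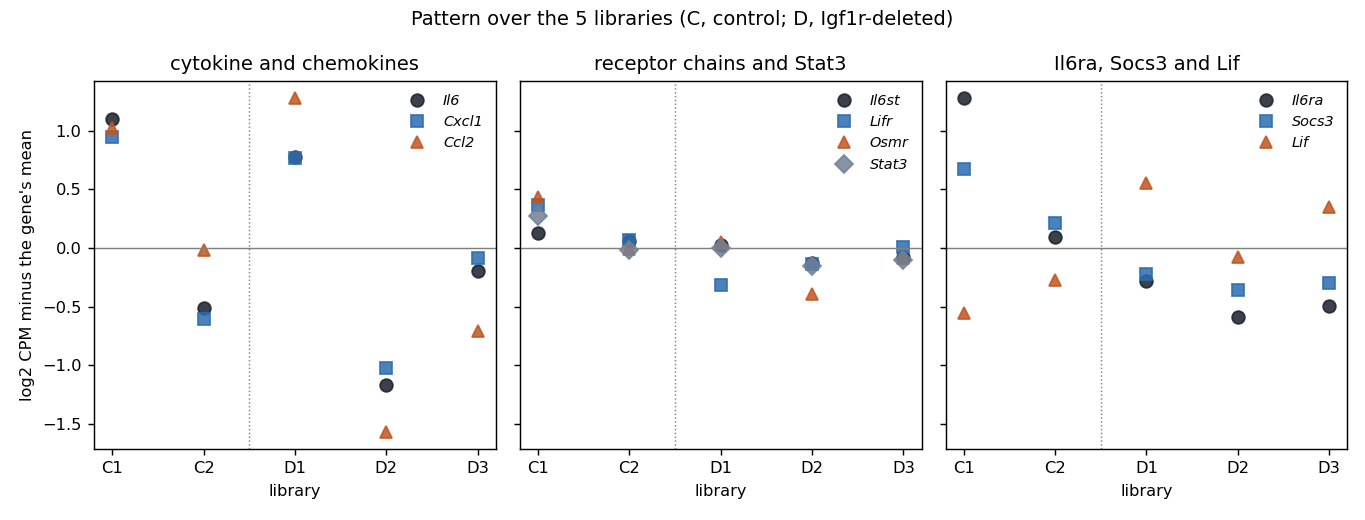
Log2 CPM of each gene minus its mean over the 5 libraries (vertical axis), 1 point per library (C, control; D, Igf1r-deleted), in 3 panels by gene group. Il6, Cxcl1 and Ccl2 are high in C1 and D1 and low in D2, Il6st, Lifr, Osmr and Stat3 stay near 0, and Lif is the one gene of the 10 that is lowest in C1.

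The promoter sequences of Il6 and Cxcl1 are shown because Cxcl1 was the gene closest to Il6 in pattern. Windows of 250 bases before the RefSeq start (GRCm38.p6) were found for 9 of the 10 members, 10 windows in all. None was found for Ccl2, which was therefore not searched. The windows were searched on both strands for STAT (TTCNNNGAA), AP-1 (TGANTCA), C/EBP (TTNNGCAA), FOXO (GTAAACA) and NF-kB motifs. Capitals mark every match. Il6, at chr5:30012864-30013113 on the plus strand, held an AP-1 match beginning 249 bases, a C/EBP match 128 bases and an NF-kB match 44 bases before the start. Cxcl1, of which 246 bases outside annotated exons are printed from chr5:90890995-90891240 on the plus strand, held 2 overlapping NF-kB matches beginning 71 and 70 bases before the start.

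Il6 promoter: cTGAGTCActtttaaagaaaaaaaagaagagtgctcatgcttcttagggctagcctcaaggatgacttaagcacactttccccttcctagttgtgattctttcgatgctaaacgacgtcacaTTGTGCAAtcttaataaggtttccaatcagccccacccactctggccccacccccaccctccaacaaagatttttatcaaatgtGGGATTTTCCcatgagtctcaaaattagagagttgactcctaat

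Cxcl1 promoter: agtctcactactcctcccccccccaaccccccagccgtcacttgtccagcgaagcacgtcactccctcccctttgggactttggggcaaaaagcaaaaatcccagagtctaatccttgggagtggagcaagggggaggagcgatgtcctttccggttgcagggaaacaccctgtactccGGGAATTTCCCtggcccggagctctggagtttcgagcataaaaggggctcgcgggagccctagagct

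An NF-kB match was found in 3.9% of all 32851 promoters, an AP-1 match in 6.75%, a C/EBP match in 9.56% and a FOXO match in 3.17%. Besides Socs3, Il6 and Cxcl1, only Lif of the members searched held a match, to AP-1, beginning 228 bases before its start. The stretch around it is chr11:4257330-4257356 on the plus strand. In the windows of Il6ra, Il6st, Lifr, Osmr and Stat3 no match occurred. The whole Osmr window lies in annotated exons of Osmr, so it is not shown to lie before the start of its transcript. Whether any match is occupied was not tested.

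Lif site: cagtcagctgTGACTCAggccatagtg

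Genes of the NF-kB pathway and its feedback, 22 in all, were below 0 in 18 cases and above in 4, with a median of -0.20. Relb and Tlr4 were called lower at the unadjusted threshold, against 6.75% of all genes. Without control replicate 1 the 22 genes were divided evenly, 11 below and 11 above, with a median of -0.01, and both calls were lost. Nfkbiz (0.72) and Ptgs2 (0.87) were then among those above 0. Tnfaip3 was at 135 and 54.3 CPM in control libraries and at 126, 43.0 and 60.8 CPM after deletion, and Nfkbia, which encodes the inhibitor IκBα, was at 180 and 96.4 CPM and at 156, 83.6 and 124 CPM. Within each genotype both were highest in replicate 1, as were Il6, Cxcl1 and Ccl2.

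Of the 23 other chemokines that could be tested, 17 were below 0 and 6 above, with a median of -0.37. Only Ccl6 was called lower at the unadjusted threshold, against 6.75% of all genes. Ccl7, the neighbour of Ccl2 in the same chemokine cluster, was at 19.5 and 5.89 CPM in control libraries and at 19.4, 4.68 and 4.29 CPM after deletion. Cxcl12, the abundant stromal chemokine, was steady at 176 and 153 CPM in the 2 controls against 170, 179 and 182 CPM after deletion. The median of the 23 without control replicate 1 was -0.03, with 14 below 0 and 9 above, and Ccl6 was no longer called. Il18 was the only one called lower of 14 other inflammatory cytokines and growth factors tested, against 6.75% of all genes. Of the 14, 11 were below 0, with a median of -0.22. Among these, 6 were below 0 and 8 above without control replicate 1, with a median of 0.03, and none was called.

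Markers of hematopoietic cells, which also make these cytokines, were highest in sum in replicate 1 of each genotype. The summed level was 751 and 472 CPM in the 2 controls against 576, 363 and 234 CPM after deletion. It was lowest in Igf1r-deleted replicate 3, while Il6, Cxcl1 and Ccl2 were lowest in Igf1r-deleted replicate 2. Of the markers tested, 17 of 17 were below 0, with a median of -0.81. At the unadjusted threshold 4 were called lower, against 6.75% of all genes. Lyz2, of macrophages and neutrophils, was at 379 and 266 CPM in control libraries and at 317, 254 and 142 CPM after deletion. S100a9, of neutrophils, was at 103 and 25.9 CPM in control libraries and at 56.9, 13.0 and 13.2 CPM after deletion. Both were highest in control replicate 1 and, among the Igf1r-deleted libraries, in replicate 1. Without control replicate 1, 14 of 17 markers were below 0. Their part in the levels of Il6, Ccl2 and Cxcl1 was not tested.

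Lif, the other ligand among the members, was higher after deletion. It was at 7.72 and 9.44 CPM in control libraries and at 16.8, 10.8 and 14.5 CPM after deletion, from 268 to 593 reads per library. All 3 Igf1r-deleted libraries were above both controls, and control replicate 1, the highest library for 8 of the other genes, was the lowest for Lif. The mean was 8.58 ± 1.22 CPM (SD, n = 2) in controls and 14.0 ± 3.02 CPM (SD, n = 3) after deletion, a ratio of 1.63. The log2 fold change was 0.71 ± 0.22 (SE), with an adjusted p of 0.354 by edgeR's quasi-likelihood test. Leaving out 1 library at a time kept it between 0.55 and 0.86.

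The other IL6 family cytokines were low. Of 10 further ligands and ligand partners, 6 could be tested, 4 were below 0 and 2 above, and none passed the unadjusted threshold. Osm, oncostatin M, a product of blood cells, was at 12.6 and 7.15 CPM in the controls and at 11.0, 4.25 and 2.81 CPM after deletion, and Ctf1, cardiotrophin-1, was at 12.0 and 9.90 CPM and at 14.6, 8.35 and 9.99 CPM. Il11 stayed between 0.195 and 0.567 CPM. Cntf, Ctf2, Il27 and Il31 were too low to be tested.

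Levels of different genes were compared per kilobase of exon. Socs3 was highest, with a mean of 491 CPM per kb in controls and 291 after deletion, followed by Il6st at 44.4 and 39.9 CPM per kb. Each stood above the next gene in every library, the lowest Socs3 value being 277 against a highest Il6st value of 45.5, and every Il6st value lying above the highest Ccl2 value of 32.4 CPM per kb. Below them came, in order of their control mean, Ccl2 (20.1), Il6ra (19.3), Stat3 (18.0), Lifr (13.9), Cxcl1 (13.8), Il6 (8.65), Osmr (5.54) and Lif (1.97 CPM per kb). In that lower order, the range of each gene over all libraries overlapped that of the next. Within every single library, however, Stat3 stood above Lifr, Cxcl1 above Il6 and Osmr above Lif. Il6ra was close to Stat3 in controls, but after deletion its mean was 8.09 CPM per kb beside 15.4 for Stat3, and the Lif mean was 3.23 beside 4.32 for Osmr.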

How the data were processed

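RNA-Seq was done on 5 libraries of GFP-sorted lung cells, prepared with the NEBNext Ultra kit and sequenced as 150-bp paired ends. The authors used Trim Galore for trimming and Bowtie2 for alignment (mm10), and deposited raw read counts per gene. The gene annotation and strand setting are not given in the sources used here. Counts were scaled by TMM and tested with edgeR 4.0.16 (quasi-likelihood test, Benjamini-Hochberg adjustment over all genes passing filterByExpr) in R 4.3.3. Alternatives were DESeq2 1.42.0, limma-voom (limma 3.58.1), other scalings and count filters, a replicate block, and leaving out each library. Replicates were not duplicates: chi-square per degree of freedom was between 23.2 and 50.7 for every pair within a genotype. Gene positions and exon lengths came from GENCODE for mm10, and promoters from RefSeq. The members and gene lists were chosen with earlier results of these data known. Besides the members and Igf1r, the genes named were mostly drawn from the 3 nearest in pattern to Il6ra and to Il6 and from each list. Candidates of a list were those with an unadjusted p under 0.05, the 4 of highest mean CPM and, for markers, the 3 of highest mean CPM. Not every gene that met this rule was named, so the genes shown are not a full set. Socs1, Il11, Ccl7, Saa3 and Ptgs2 were chosen after their values were seen, as was the recount of each list without each library. A gene near Il6ra in pattern is not reported here.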

Additional observations from a re-analysis of the deposited data

How the results depend on the processing

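The direction of all 10 genes was the same under other scalings, other count filters, DESeq2's Wald test, limma-voom and the replicate block. Leaving out control replicate 1 reversed Il6 (0.52), Ccl2 (0.18) and Cxcl1 (0.66), and leaving out Igf1r-deleted replicate 2 reversed Ccl2 (0.01) and Cxcl1 (0.03). Over all such omissions the log2 fold change ran from -1.13 to 0.52 for Il6, from -1.69 to 0.18 for Ccl2 and from -0.90 to 0.66 for Cxcl1. The cause was not tested. Genes past an adjusted p of 0.05 numbered 0 in edgeR's quasi-likelihood test, 199 with DESeq2's Wald test, and from 0 to 45 when 1 library was left out. Of the 9 members tested, 0 passed, or 1 (Socs3) with DESeq2's Wald test. Genes past an unadjusted p of 0.05 numbered 1897, and from 433 to 3183 when 1 library was left out. The lowest count came without control replicate 1 and the highest without Igf1r-deleted replicate 1. Shared replicate numbers did not mark shared animals in the labels, and only 2 numbers occur in both genotypes. The deviations of same-numbered libraries correlated at 0.208 for replicate 1 and 0.121 for replicate 2. Control replicate 2 and Igf1r-deleted replicate 3, which share no number, correlated at 0.119. Deviations of the 2 controls mirror each other by construction, so these values are not independent. With the replicate number as a block, 136 genes passed, and none of the 9 members did. At an unadjusted p of 0.05 that block called Il6, Lifr, Osmr and Socs3 lower and Lif higher. They were among 2056 such genes of 15298 tested. Ccl2 was -0.42 in edgeR but -0.87 with limma-voom.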
